A study of Homo sapiens with 12 samples.

Results

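The SMC1 and CTCF peak lists of ΔWAPL/ΔSCC4 cells were compared with each other, summit by summit. The 2 lists held 74166 of the 267921 peaks of the series, 26558 for SMC1 and 47608 for CTCF, and every peak of both lists entered the comparison. An SMC1 peak was taken as lying at a CTCF peak when the intervals shared at least 1 bp, the distance was that between the summits (the base of highest read pileup), and the side was read along the CTCF motif in the reference genome.

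The 12 libraries of the series were made by chromatin immunoprecipitation and sequencing (ChIP-seq) in HAP1, a human line of chronic myeloid leukaemia origin with a nearly haploid genome. Antibodies against SMC1, against CTCF or control IgG were used on 4 genotypes, namely wild-type, the single deletions ΔWAPL and ΔSCC4, and the double deletion ΔWAPL/ΔSCC4. The ΔWAPL line carried a Blasticidine cassette inserted in WAPL by CRISPR and the ΔSCC4 line a Puromycin cassette inserted in the gene of SCC4. For the double deletion, SCC4 was disrupted in ΔWAPL cells of the line labelled WaplKO_3.3, so that it shares its WAPL disruption and its clonal history with the ΔWAPL group, and wild-type HAP1 is the parent of all. The mutant lines are clones, and clone and genotype cannot be told apart. Each group held 1 library, so there is no replicate, no test was made between genotypes, and the 95% intervals given with shares (Wilson) and medians (order statistics) cover counting error only. In a mixed population of cells, a weaker peak can mean fewer cells with the protein at a site or shorter binding in each cell, and the lists cannot tell these apart.

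Cohesin is a ring-shaped complex that holds DNA inside it, and SMC1 is one of its core subunits. The SCC2/SCC4 complex loads cohesin onto DNA, WAPL releases it, and CTCF, a zinc-finger protein, is the site at which travelling cohesin tends to stop. The CTCF motif is not a palindrome, so each bound site points along the chromosome. The amino-terminal part of CTCF, which contacts cohesin, lies on the 3′ side of the motif as it is written here, and loops anchored at CTCF usually join sites whose motifs point toward each other, called convergent.

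The motif was learned from the strongest wild-type CTCF peaks. Its consensus is shown because all sides and strands below are read along it, and the capitals mark its core. The consensus learned from the ΔWAPL/ΔSCC4 list was the same at 19 of 19 positions.

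Consensus, 5′ to 3′: tggcCACCAGGGGGCgccg

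The sites below are the strongest SMC1 peaks by −log10 q at a CTCF peak with a motif on the plus strand only or on the minus strand only. Each sequence is from GRCh37 (hg19) and is written 5′ to 3′ along the motif, with the 19 motif bases in capitals and 6 and 5 flanking bases in lower case.

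CEMIP, plus strand, chr15:81071518-81071536: ccagagCCGCCGCCAGAGCCCGCCCcggtc

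CORO2B, plus strand, chr15:68852110-68852128: acggcgTGCCCACCAGGGGGCGCGGcccgc

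ENSG00000289962, plus strand, chr1:225662789-225662807: gcccgtCGGCCGGCAGAGGGCGCTGcgcac

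FSIP2, minus strand, chr2:186603744-186603762: ggcctgCGGCCGCCAGAGGGCGACGccgcc

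COMTD1, minus strand, chr10:76995867-76995885: ccggcgCGGCCACCAGATCGCGCCCggctc

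DAPK2, minus strand, chr15:64338754-64338772: gaggggGCTCCAGCAGGGGGCGCCCcgagc

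The strongest CTCF peaks that had a motif match and no SMC1 peak are shown in the same way, as the counterpart that lacks called cohesin.

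RN7SL2, plus strand, chr14:50328965-50328983: gaatatGCGCCGGTAGGGGGCAGCGatgag

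EEF2, minus strand, chr19:3987953-3987971: gactgtCGGTCAGCAGGGGCCGCTActgcg

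HNRNPDL, minus strand, chr4:83350679-83350697: cagctcCGCCCGGCAGGGGGCGCGCcgggc

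The CTCF list fits its label by sequence. On the even-numbered chromosomes, which were not used to learn the motif, 77.7% of the ΔWAPL/ΔSCC4 CTCF peaks held a match within 50 bp of the summit (95% interval 77.1 to 78.2%), against 4.93% of windows 1000 bp downstream. The match threshold let 5% of such windows pass at wild-type CTCF peaks of the same chromosomes, so the 4.93% largely follows from it. The genotype cannot be checked from peaks. The libraries had a genome-wide average of 6.79 reads per kb for SMC1 and 7.09 for CTCF, recovered from the lowest background and the fragment length. The other SMC1 libraries had 7.66 to 8.41 and the other CTCF libraries 6.53 to 8.41. The SMC1 library of ΔWAPL/ΔSCC4 was thus the shallowest of the SMC1 libraries. The fragment length was taken as the shortest peak width of each list. For SMC1 the fragment length was 227 bp in ΔWAPL/ΔSCC4 and 194 to 208 bp in the other genotypes. Its part in the summit positions was not tested.

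Nearly all cohesin sites of the double deletion lay on CTCF, and the sites overlapped 1 to 1. Of the SMC1 peaks, 24824 (93.5%) overlapped a CTCF peak, and of the CTCF peaks, 24865 (52.2%) overlapped an SMC1 peak. An SMC1 interval covered 1 CTCF peak in 24753 cases, 2 in 70 cases and more in 1 case, and 31 CTCF peaks carried 2 SMC1 peaks. The SMC1 summit lay a median of 29 bp from the nearest CTCF summit (28 to 29 bp), with quartiles of 13 and 52 bp. It was within 20 bp in 37.7%, within 50 bp in 73.6% and within 100 bp in 94.0% of the pairs, and on the same base in 259 of them. Only 135 pairs had summits more than 250 bp apart. In 98.1% of the pairs each summit lay inside the interval of the other protein. Wild-type cells had a median of 26 bp and both single deletions 27 bp. This order was not kept when each list was cut to an equal number of its strongest SMC1 peaks. The medians were then 23 bp in wild-type and ΔWAPL cells, 27 bp in ΔSCC4 cells and 24 bp in ΔWAPL/ΔSCC4 cells. The ΔSCC4 list was not shortened by this cut. With −log10 q of at least 10 the medians were 21, 24, 21 and 24 bp, in the order wild-type, ΔWAPL, ΔSCC4 and ΔWAPL/ΔSCC4. In ΔWAPL/ΔSCC4 cells strong SMC1 peaks sat closer. The median distance was 21 bp in the strongest and 40 bp in the weakest of 5 classes of equal size by SMC1 −log10 q. CTCF and SMC1 fold enrichment rose together across the 24824 pairs (Spearman's rho 0.56), which describes pairs that share their DNA, their mappability and their local background.

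The next comparison asked on which side of CTCF the cohesin peak was found. Among the 22415 SMC1 peaks at a CTCF peak with a motif match, the SMC1 summit was on the 3′ side of the CTCF summit in 58.2% (57.5 to 58.8%) of those not on the same base, with a median offset of 8 bp toward 3′. Counted along the chromosome instead, irrespective of the motif, 48.3% of the same summits lay to the right. The 3′ share was 56.4% at plus-strand motifs and 59.97% at minus-strand motifs, so that the side turned with the motif. Part of this offset belonged to the CTCF summit, which was itself 5′ of the motif centre, by a median of -7 bp over all CTCF peaks with a match and -8 bp over those with SMC1, where 34.3% lay on the 3′ side. Measured from the motif centre, the SMC1 summit was nearly centred, with a median of 2 bp (1 to 2 bp) and 51.7% on the 3′ side (51.1 to 52.4%).

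**Figure D1:**
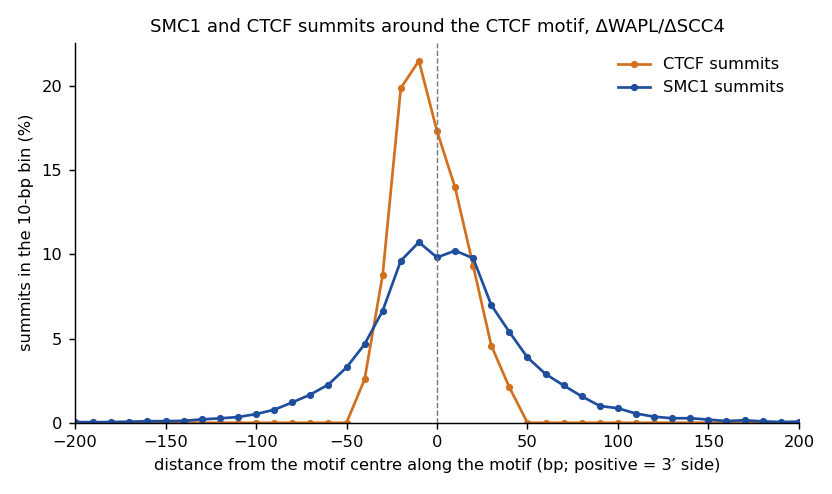
Share of CTCF summits (orange, 37132 peaks) and of SMC1 summits (blue, 22415 peaks) of ΔWAPL/ΔSCC4 cells in 10-bp bins of distance from the motif centre, in bp, with the 3′ side positive. CTCF summits peak 5′ of the centre (21.5% in the bin at -10 bp) and end near 40 bp because the motif was searched within 50 bp of them, whereas SMC1 summits are broad, with 10.7% in the bin at -10 bp, 10.2% at 10 bp and more at 50 bp (3.88%) than at -50 bp (3.28%).

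The 3′ side held more of the SMC1 summits the farther they lay from CTCF, up to 199 bp. Summits 1 to 19 bp from the CTCF summit were 3′ in 52.9% (51.8 to 54.0%), those 20 to 49 bp away in 58.7%, those 50 to 99 bp away in 64.4% and those 100 to 199 bp away in 68.0% (65.1 to 70.8%). From the motif centre the same classes gave 49.2%, 51.5%, 55.4% and 61.5% (58.3 to 64.7%). From the CTCF summit every one of these classes had more summits on the 3′ side, with 4932 against 3468 at 20 to 49 bp and 2939 against 1624 at 50 to 99 bp. From the motif centre the nearest class had slightly fewer on that side, and the interval of the next still lay above 50%. Beyond 199 bp the classes were small, with 58.4% of 125 summits at 200 to 399 bp and 44.4% of 36 farther out, and the intervals of both include 50%. Strong peaks were also more often 3′, with 55.0% in the weakest of the 5 classes of SMC1 peaks and 61.9% in the strongest, and their median offsets were 7 and 8 bp.

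**Figure D2:**
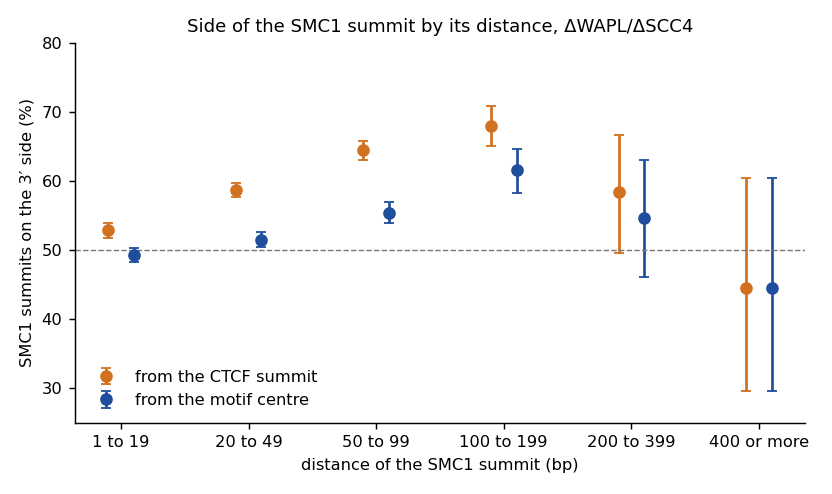
Share of SMC1 summits on the 3′ side in ΔWAPL/ΔSCC4 cells by the distance of the summit in bp, measured from the CTCF summit (orange) or from the motif centre (blue), with 95% Wilson intervals as bars and 50% as the dashed line. The share rises from 52.9% to 68.0% from the CTCF summit and from 49.2% to 61.5% from the motif centre over the first 4 classes, and the intervals of the last 2 classes include 50%.

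The strongest sites show how the offset varies from place to place. Among the ranked sites, the strongest SMC1 peak at a minus-strand motif was in an intron of FSIP2, 70 bp upstream of the nearest start, that of the antisense gene FSIP2-AS2. FSIP2 encodes a fibrous sheath protein of the sperm tail. SMC1 reached a fold enrichment of 18.9 there, with 140 reads over a background of 6.47, and CTCF 21.8. The SMC1 summit lay at -43 bp from the CTCF summit along the motif, which is the 5′ side. Near COMTD1 the summit lay 20 bp to the 3′ side, 68 bp upstream of the start of that gene, with a fold enrichment of 15.3 for SMC1 and 26.2 for CTCF. In DAPK2, the gene of a death-associated protein kinase, the 2 summits were 1 bp apart. Measured from the CTCF summit, these 3 sites thus covered the 5′ side, the 3′ side and the centre. From the motif centre their SMC1 summits lay at -69, 20 and -12 bp.

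At the plus-strand motifs, all 3 SMC1 summits lay 3′ of the CTCF summit. The CEMIP site lay 180 bp upstream of the start of CEMIP, the gene of a hyaluronan-binding protein, and its SMC1 summit was 3 bp from that of CTCF. The CORO2B site was intergenic, 19203 bp upstream of the start of CORO2B, the gene of a coronin that binds actin, and its summits were 22 bp apart. The third site was intergenic on chromosome 1, with 5 bp between the summits. From the motif centre the same summits lay at -23, 10 and 27 bp. The fold enrichment of SMC1 was 11.5, 15.3 and 17.1 and that of CTCF 14.1, 18.1 and 27.8. At these 6 sites both proteins had a peak in every genotype, with an SMC1 fold enrichment of 9.50 to 19.1 in the other genotypes. Of the 36 sites named by rank in this report, 15 lay on chromosome 15, which holds 3.72% of the SMC1 peaks. Their median SMC1 background was 7.29 reads against 2.50 over the whole list, and the part of that background in their rank was not tested.

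The stretches around the CORO2B and COMTD1 motifs are shown because both summits fall inside them. Counted from 1 at the 5′ end, the motif centre is base 51. At CORO2B (chr15:68852069-68852169) the CTCF summit was base 39 and the SMC1 summit base 61. At COMTD1 (chr10:76995826-76995926, minus strand) the CTCF summit was base 51 and the SMC1 summit base 71.

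CORO2B: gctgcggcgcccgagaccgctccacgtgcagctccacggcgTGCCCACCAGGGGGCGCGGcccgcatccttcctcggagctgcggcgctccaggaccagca

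COMTD1: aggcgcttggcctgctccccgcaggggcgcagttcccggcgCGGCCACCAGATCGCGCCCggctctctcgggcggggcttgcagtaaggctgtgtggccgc

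Cohesin was also found at CTCF peaks in which no motif match was called, and 2439 CTCF peaks with SMC1 were of this kind. The strongest of them lay 85 bp upstream of a start of KCNH1, a voltage-gated potassium channel gene, with a fold enrichment of 15.4 for SMC1 and 20.3 for CTCF and 37 bp between the summits. The others were intergenic on chromosome 16 (chr16:74846889-74847564), with 14.9 and 19.9, and 90 bp upstream of MAML2, a coactivator of Notch signaling, with 14.3 and 17.2. The summits of these sites were 30 and 29 bp apart. All 3 sites had both peaks in each genotype.

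Which CTCF sites carried cohesin was compared by the strength of CTCF, with the list cut into 10 classes of equal size by CTCF −log10 q. In class 1, the weakest, 5.44% of the peaks overlapped an SMC1 peak (4.83 to 6.12%), against 46.5% in class 5 and 95.5% in class 10, the strongest (94.9 to 96.04%). Of 4761 peaks in class 10, 4546 carried SMC1. Peaks with a motif match carried SMC1 in 60.4% (59.9 to 60.9%) and peaks without one in 23.3% (22.5 to 24.1%), but the peaks without a match were weaker, with a median CTCF fold enrichment of 6.55 against 12.5. In class 1 the shares with and without a match were 5.72% and 5.21%, with overlapping intervals. In class 7 they were 79.5% and 64.5%, and in class 10 they were 95.9% and 84.2%. Over all CTCF peaks with a match, the share with SMC1 went from 41.4% in the lowest of 4 classes of motif score to 80.9% in the highest. Among CTCF peaks of strength class 2 it was 10.3% at the lowest and 9.80% at the highest scores, and in class 7 it was 73.1% and 84.2%.

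**Figure D3:**
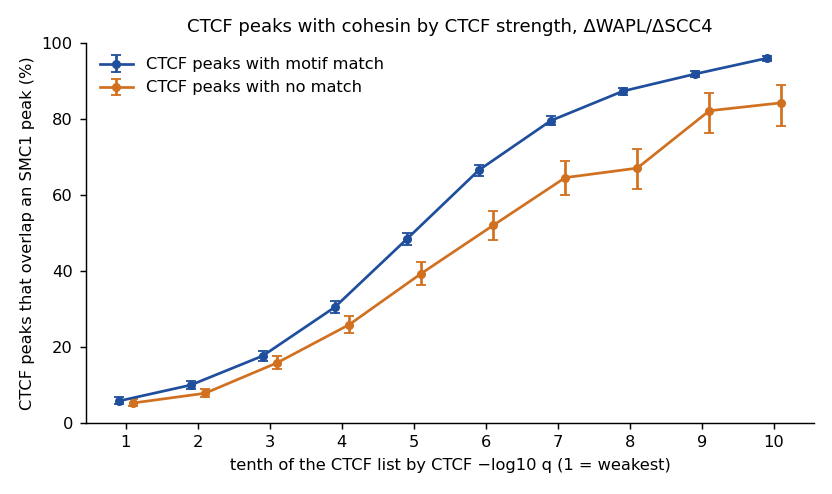
Share of ΔWAPL/ΔSCC4 CTCF peaks that overlap an SMC1 peak, in 10 classes of equal size from weakest to strongest CTCF −log10 q, for peaks with a motif match (blue) and without one (orange), with 95% Wilson intervals as bars. Both lines climb, from 5.72% to 95.9% with a match and from 5.21% to 84.2% without, and their intervals are apart from class 4 on.

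Strand and position were compared in the same way. SMC1 was found at 60.2% of the plus-strand and 60.5% of the minus-strand sites. CTCF peaks within 1 kb of a start site carried it in 55.6% and the others in 51.4%. This difference was not kept across strengths, since in class 3 the shares were 24.5% and 15.2%, and in class 10 they were 93.7% and 96.1%. Intergenic CTCF peaks carried SMC1 in 56.9%, exonic ones in 51.9% and intronic ones in 49.1%, and the intergenic ones were also the strongest (median fold enrichment 11.6 against 10.3 and 10.7). Among chromosomes the share ranged from 46.8% (chromosome 19) to 57.0% (chromosome 15, where the background is raised at the named sites). CTCF peaks found in ΔWAPL/ΔSCC4 cells alone carried SMC1 in 5.16%, and those found in all 4 genotypes in 66.5%, with a median CTCF fold enrichment of 4.96 and 13.4.

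A few strong CTCF peaks carried no called cohesin. The strongest lay in an exon of the non-coding gene ENSG00000282885, 623 bp downstream of the start of RN7SL2, which makes an RNA of the signal recognition particle, with a CTCF fold enrichment of 20.0 and 222 reads at the summit. The next lay 2497 bp upstream of EEF2, the translation elongation factor gene, with 23, and the third in an exon of HNRNPDL, the gene of an RNA-binding protein, with 25.0. Without SMC1 and without a motif match, the strongest were in an intron of STOML1 (21.4) and at a pair of intergenic sites on chromosome 1 (24.5 and 19.9). All 6 had an SMC1 peak in ΔWAPL cells, with a fold enrichment of 4.43 to 8.16, and 3 of them also had one in wild-type cells, of 4.35 to 4.99. None had one in ΔSCC4 cells. No SMC1 call in ΔWAPL/ΔSCC4 means only that no peak passed the threshold at this depth, and the reason was not tested. CTCF had a peak there in every genotype, with 18.7 to 28.8 in the other 3.

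The orientation of neighbouring sites was compared next. The 22426 CTCF peaks with SMC1 and a motif match were 50.5% plus, and they made 22402 pairs of consecutive sites on the same chromosome, with a median spacing of 68.1 kb. Convergent pairs (plus then minus) were 5789, divergent pairs (minus then plus) 5785 and tandem pairs 10828. The first 2 numbers are equal by construction to within 1 per chromosome, because strands that turn one way must turn back, so only the tandem share (48.3%, 47.7 to 48.99%, against 50.0% from the strand counts) and the change with spacing are informative.

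Spacing separated the orientations. Pairs 2 to 20 kb apart were convergent in 15% (13.99 to 16.1%) and divergent in 32.4% (31.1 to 33.8%). At 20 to 100 kb the shares were 23.8% and 28.0%. Pairs 100 to 300 kb apart were convergent in 33.1% and divergent in 20.8%, and at 300 kb or more in 37.3% (35.3 to 39.3%) and 18.2% (16.7 to 19.9%). Close neighbours were thus more often divergent and distant neighbours more often convergent, with intervals apart in each of these classes. Consecutive CTCF sites taken irrespective of cohesin showed the same trend, with 19.4%, 24.2%, 32.6% and 36.3% convergent and 28.6%, 25.7%, 18.2% and 15.8% divergent from 2 kb up. The tandem share fell from 57.3% under 2 kb to 44.5% at 300 kb or more. Among the 14706 CTCF peaks with a motif but no SMC1, neighbours were convergent in 22.2%, 23.7%, 23.4% and 28.2% over the same spacings, from 2 kb up, and divergent in 24.8%, 26.6%, 23.5% and 21.6%.

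**Figure D4:**
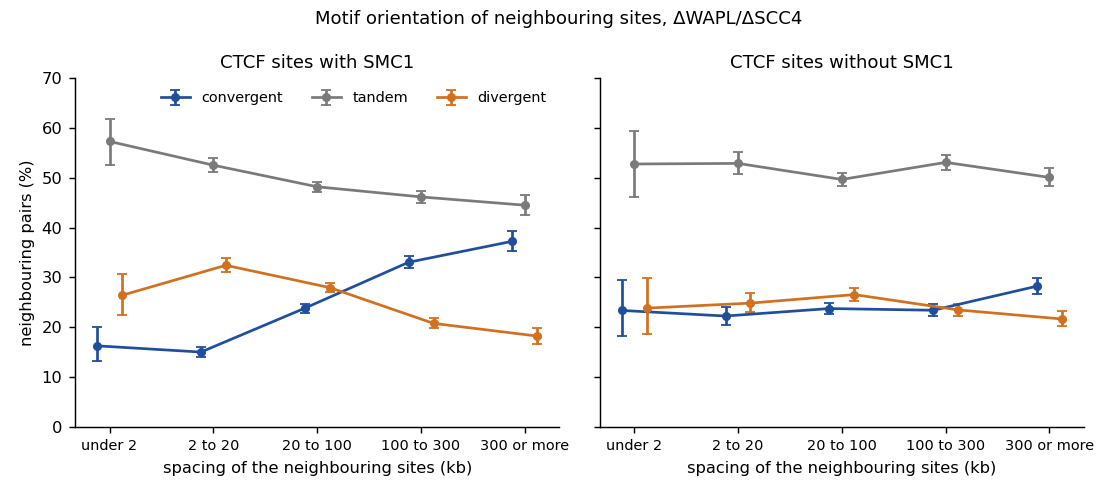
Share of pairs of consecutive sites that are convergent (blue), tandem (grey) or divergent (orange), by spacing in kb, for ΔWAPL/ΔSCC4 CTCF sites with SMC1 (left) and without SMC1 (right), with 95% Wilson intervals as bars. With SMC1 the convergent share climbs from 15% at 2 to 20 kb to 37.3% at 300 kb or more and crosses the divergent share, which goes from 32.4% to 18.2%, and without SMC1 the shares also cross, from 22.2% convergent and 24.8% divergent to 28.2% and 21.6%, over a smaller range.

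Sites were also taken as neighbours irrespective of cohesin, to ask how often both carried it. Of consecutive CTCF sites with a motif 2 to 20 kb apart, both carried SMC1 in 30.04% of convergent pairs (28.1 to 32.0%), 39.6% of tandem pairs and 43.5% of divergent pairs (41.7 to 45.2%). At 100 to 300 kb the order was turned, with 42.4% (40.4 to 44.4%), 35.6% and 34.5% (32.0 to 37.1%). CTCF strength moved with both of these differences. At 2 to 20 kb the weaker site of a close convergent pair had a median −log10 q of 16.7 and that of a close divergent pair 22.3. At 100 to 300 kb the medians were 17.2 for convergent, 15.6 for tandem and 15.8 for divergent pairs. The part of CTCF strength in these shares was not tested. In sites whose next CTCF site on the 3′ side was 100 to 300 kb away, SMC1 was carried by 65.2% where that site pointed back and by 62.1% where it pointed the same way. Averaged over the 10 classes of CTCF strength, so that each class counts equally, these shares were 59.2% and 55.9%. The same averages for a next site 2 to 20 kb away were 49.3% and 50.4%.

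Of the tandem pairs in which just 1 site carried SMC1, the carrier was the 3′-most of the pair in 48.5% (47.4 to 49.5%), and at 100 to 300 kb in 44.4% (42.0 to 46.8%). At 2 to 20 kb it was 50.9% (48.9 to 52.9%). CTCF strength moved with this, since of all tandem pairs the 5′ site had a median −log10 q of 36.3 and the 3′ site 33.5. Averaged over the 10 classes of CTCF strength, SMC1 was carried by 52.4% of the 5′ sites and 53.4% of the 3′ sites, and by 55.9% of both at 100 to 300 kb. Where 1 SMC1 interval covered more than 1 CTCF peak, both with a motif, the SMC1 summit lay between the CTCF summits in 7 of 11 convergent, 3 of 7 divergent and 10 of 14 tandem cases.

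The strongest pairs 20 to 500 kb apart give an example of each orientation. The first convergent pair ran from an intron of IQCH to an exon of SKOR1, a corepressor gene, over 377 kb, with an SMC1 fold enrichment of 13.3 at the left and 8.33 at the right site and offsets of 15 and -9 bp. Between them lay 3 CTCF peaks, 1 of them with SMC1 and none oriented by a motif. The other ran from an intron of TMED3, a gene of vesicle transport, over 215 kb, past 5 CTCF peaks without SMC1. The motifs of the first pair face each other across the interval. The ranking of pairs kept sites with matches on both strands, which took the strand of the better score. The IQCH and TMED3 sites are among them. Second matches are not marked at the other named pair sites, so their orientations can rest on the same choice.

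IQCH, plus strand, chr15:67749454-67749472: caacagCTGCCACCAGGTGGCAACAagcca

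SKOR1, minus strand, chr15:68126331-68126349: cagggaCGCCCGGGAGGGGGCGGGCaaggc

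The divergent pairs were closer. One spanned 90.1 kb, from an intergenic site to an intron of LINGO1, a gene of a neuronal membrane protein, where SMC1 reached 15.2 with 144 reads over 8.56. The other spanned 27.1 kb from an intron of SLC28A1, a nucleoside transporter gene. Of the tandem pairs, those with plus motifs were 27.2 kb apart on chromosome 17 and 94.0 kb apart on chromosome 18, the latter starting in an intron of CPLX4, a complexin gene. Those with minus motifs were 46.5 and 76.9 kb apart on chromosome 15, the latter starting in an intron of SMAD6, an inhibitor of BMP signaling.

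The 1734 SMC1 peaks without CTCF were a different class by position and sequence. Within 1 kb of a start site lay 1393 of them (80.3%), against 20.8% of SMC1 peaks at CTCF. Their summits lay a median of 7 bp downstream of the start and 54.0% were on the downstream side (51.4 to 56.6%), whereas those at CTCF near a start were downstream in 40.1% (38.8 to 41.5%). The 50 bp to either side of the summit had a median GC content of 70.3% and 10 CpG, against 52.5% and 2 at CTCF. On even-numbered chromosomes 29.7% held a CTCF motif match (26.7 to 33.0%) and 6.09% of flanking windows did. Neither the match threshold nor the flanking windows were matched for GC content, and its part in these matches was not tested. A CTCF peak of any other genotype lay there in 13.03%. SMC1 was called at the same places in 68.3% in ΔWAPL, 19.3% in wild-type and 11.2% in ΔSCC4 cells. An IgG peak of any genotype was there in 1.44%, and in 1.24% of the peaks at CTCF.

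The strongest of this class lay 16 bp downstream of the start of COPS7B, a COP9 signalosome subunit, with an SMC1 fold enrichment of 11.3 (42 reads over 2.81). In the other genotypes it was 6.74 (wild-type), 14.7 (ΔWAPL) and 5.25 (ΔSCC4). The next lay 32 bp upstream of TOP3B, a DNA topoisomerase gene, with 9.84, against 9.63 in wild-type and 15.2 in ΔWAPL cells and no peak in ΔSCC4 cells. The third was in the pseudogene WASH2P with 12.1, and reads there cannot be told apart from those of near-identical WASH copies. Away from start sites, the strongest was in an exon at a place spanned by SMC4, which encodes a condensin subunit, TRIM59 and ENSG00000248710. Its fold enrichment was 10.2 with 34 reads over 2.43, and no peak of either antibody was there in the other genotypes. The remaining pair, intergenic on chromosomes 2 and 9, had 7.81 and 7.79 and was shared with ΔWAPL cells alone.

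Promoters were compared by gene list, as a description. Of 20098 protein-coding genes, 18.4% had an SMC1 peak at CTCF within 1 kb of a start site, a further 6.03% had SMC1 without CTCF, and a further 11.9% had CTCF without SMC1. The clustered protocadherins, cell-surface proteins of neurons whose promoters hold CTCF sites, had CTCF alone at 29 of 53 genes, both at 10 (PCDHA3 and PCDHB2 among them) and SMC1 alone at 0. The mitochondrial ribosomal proteins had 16 of 78 with both, such as MRPS12 and MRPL38, 11 with SMC1 alone, such as MRPL3 and MRPS31, and 8 with CTCF alone. Of 84 cytosolic ribosomal proteins, 15 had both (RPL5, RPS20), 4 had SMC1 alone (RPL15, RPL29, RPS27A and RPS27L) and 16 had CTCF alone (RPL3, RPS14). No test was made on these lists, and neighbouring genes of a cluster can share a peak.

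For the remaining lists, the shares over all protein-coding genes were 18.4% with both, 6.03% with SMC1 alone, 11.9% with CTCF alone and 63.7% with neither. Of 63 replication-dependent histone genes, 1 (H2AC21) had both and 5 had CTCF alone. Of 39 HOX genes, which pattern the body axis, 5 (12.8%) had both, HOXB5, HOXC5 and HOXC10 among them, and 30 (76.9%) had neither. Of 508 zinc-finger genes the numbers were 58, 28 and 53, and of 399 olfactory receptor genes 2, 0 and 3. Of 15 genes of cohesin subunits and regulators, 7 (46.7%) had both, namely CTCF, ESCO1, MAU2, PDS5A, PDS5B, RAD21 and STAG1. NIPBL, the gene of SCC2, and STAG2 had CTCF alone, and 6 had neither.

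**Figure D5:**
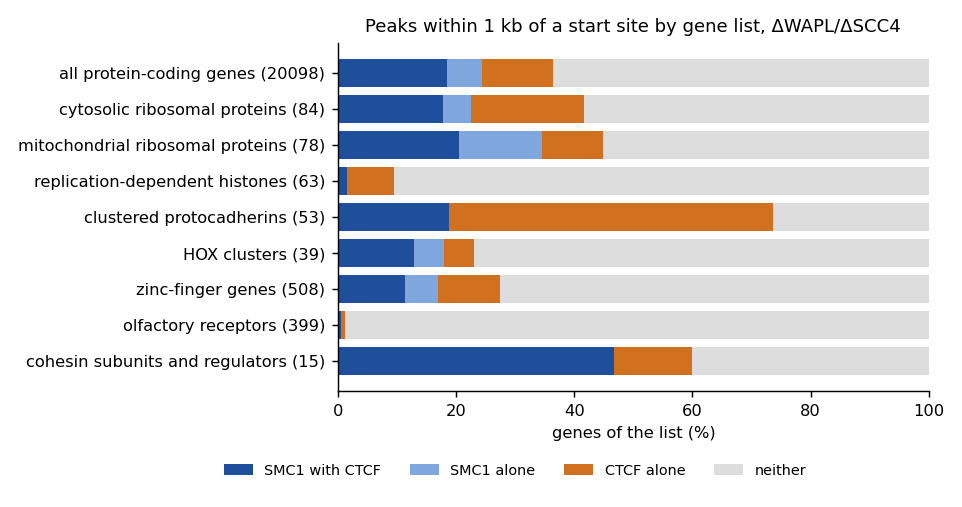
Share of the genes of each list, with the number of genes in brackets, that have within 1 kb of a start site an SMC1 peak at CTCF (dark blue), otherwise SMC1 alone (light blue), otherwise CTCF alone (orange), or neither (grey), in ΔWAPL/ΔSCC4 cells. CTCF alone takes up 54.7% of the protocadherins against 11.9% of all protein-coding genes, and SMC1 alone 14.1% of the mitochondrial ribosomal proteins against 6.03%.

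Within MAU2, the gene that encodes SCC4, the SMC1 summit lay 2 bp to the 3′ side of the CTCF summit, 286 bp downstream of a start, on a minus-strand motif. NCAM2, a gene of a neural cell adhesion molecule, held 5 intronic CTCF summits, 4 of them with an SMC1 summit in the gene. The third site points against the others, and the SMC1 summit lay at 17, -26, 8 and -14 bp from CTCF along the motif at the sites that carried it. Site 4 has matches on both strands, and its direction is that of the better score. The second CTCF peak carried none and had the lowest fold enrichment of CTCF, 7.01 against 12.2 to 17.0. The motifs are shown in the order of the chromosome.

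NCAM2 site 1, plus strand, chr21:22372074-22372092: tcgtttGGTCCAGCAGGGGGTGGTAgaact

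NCAM2 site 2, plus strand, chr21:22376238-22376256: tacaatTTGCCAGCAGATGGCAGTAaaagg

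NCAM2 site 3, minus strand, chr21:22474423-22474441: tggttaAGGTCAGCAGGGGGCTCTCtcatc

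NCAM2 site 4, plus strand, chr21:22536409-22536427: ggacagCTGCCACCAGGTGGCACTAaattc

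NCAM2 site 5, plus strand, chr21:22604808-22604826: cttgagTTGCCACTTGATGGCAGTCatgtc

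The CTCF sites that carried cohesin in the double deletion were then looked up in the other genotypes. Of the 24865, an SMC1 peak was also there in 88.9% in ΔWAPL, 65.4% in wild-type and 47.6% in ΔSCC4 cells, whereas a CTCF peak was there in 98.5%, 97.0% and 93.4%. All 4 genotypes had SMC1 at 10614 of them (42.7%), and 2137 (8.59%) had it in ΔWAPL/ΔSCC4 cells alone. The former were stronger, with a median SMC1 fold enrichment of 8.15 against 5.00, and the SMC1 summit was on the 3′ side of CTCF in 59.99% (59.02 to 60.96%) against 55.2% (52.8 to 57.6%). A further 5380 were shared with ΔWAPL alone and 5187 with ΔWAPL and wild-type, with 57.1% and 56.9% on the 3′ side.

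Measured in the same way, the 3′ share of wild-type cells was 58.3%, that of ΔWAPL cells 61.6% and that of ΔSCC4 cells 56.0%, beside 58.2% in the double deletion. The convergent share of occupied neighbours 300 kb or more apart was 33.5%, 37.1% and 29.0% in those genotypes, with 37.3% in the double deletion. List length moved with these values. With the 12779 strongest SMC1 peaks of each list, the convergent share was 30.8%, 32.7%, 29.0% and 31.4% and the 3′ share 58.9%, 64.0%, 56.0% and 59.9%, in the order wild-type, ΔWAPL, ΔSCC4 and ΔWAPL/ΔSCC4. That number is the whole ΔSCC4 list, so its weakest peaks were kept while the other lists lost theirs. With 1 library each, no difference between genotypes was tested.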

How the data were processed

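Peak lists of 12 ChIP-seq libraries were used as deposited. Their lengths differ from the peak numbers that the study gives, so they may come from another calling, and list length moves the shares printed here. The authors mapped reads to hg19 with Bowtie2 and called peaks with MACS2 (version 2.1.1), and the calling threshold is not given in the sources used here. As deposited, fold enrichment is the ratio of pileup to background at the summit after 1 read is added to both. The authors' −log10 p and −log10 q columns hold the p-value and q-value that MACS2 gave at that base, and the deposited score, made for display, was not used. The study names IgG as the control, but no subtraction of IgG is visible in the backgrounds recovered from fold enrichment and −log10 p. Among peaks with a background above the lowest of their list, over 99.9% had a whole number of the library's own reads in 10 kb. Exactly 1 whole-number pileup solved both values for over 99.9% of peaks. From there, shares and medians were computed in Python (3.11.15) with numpy (2.4.6), pandas (2.3.3), scipy (1.17.1) and pysam (0.24.0), with 95% intervals. The coordinates match GRCh37, and no peak lay beyond a chromosome end. Start sites and genes are from GENCODE release 44 mapped to GRCh37.

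The motif of 19 bp was learned on the odd-numbered chromosomes from 1000 CTCF peaks of wild-type cells, starting from the short word most enriched over flanks. A match is the best score within 50 bp of a CTCF summit above the score that 5% of windows 1000 bp downstream reached. Those windows were taken at wild-type CTCF peaks on the even-numbered chromosomes. A site with matches on both strands took the strand of the better score. The functions were tested on simulated data. The members, gene lists and named-site rule were chosen with earlier results of these data known. The rule took the 3 peaks of highest −log10 q of 7 classes and the 2 strongest pairs of 4 orientations, on chromosomes 1 to 22 and X without 8 and away from IgG peaks, plus the peaks in MAU2, WAPL and NCAM2. WAPL held none. Alternatives covered thresholds, IgG peaks, chromosomes, overlap rules, motif settings, interval middles and neighbour rules. Some results of the gene lists are not reported here.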

Additional observations from a re-analysis of the deposited data

Results flagged for a closer look

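The effect of losing SCC4, or of losing WAPL, was computed with and without the other deletion for 7 measures. Of these 14 comparisons, 1 had effects of opposite direction. The share of CTCF peaks with SMC1 that hold a motif match went from 92.4% to 92.1% with loss of SCC4 in wild-type cells and from 89.3% to 89.8% with its loss in ΔWAPL cells, so that the effects differed by 0.905 percentage points. The 95% intervals of the 2 shares overlapped in each background, and with 1 library per group the difference was not tested.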

How the results depend on the processing

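No paired analysis was possible because each group has 1 library, and for the same reason no replicate could be left out. Of 16 alternative settings, 3 were chosen after seeing the data (chromosome 15 left out, odd-numbered chromosomes, equal numbers of the strongest SMC1 peaks). No setting turned the side of the SMC1 summit. With −log10 q of at least 10, SMC1 peaks at CTCF were 98.8%, CTCF peaks with SMC1 38.0%, the median distance 24 bp, the 3′ share 59.9%, the motif share 93.1% and the convergent share 27.0%. With fold enrichment of at least 5 they were 97.7%, 46.9%, 26 bp, 58.9%, 92.0% and 26.6%. With the strongest 12779 SMC1 peaks, 99.5% lay at CTCF, 26.8% of CTCF peaks had SMC1, and the distance was 24 bp, the 3′ share 59.9% and the convergent share 27.1%. SMC1 at CTCF was 93.0% with an overlap of 50% and 93.0% with summits within 250 bp. The motif share was 91.2% without peaks at IgG peaks, 77.8% with the 1% threshold and 91.0% on odd-numbered chromosomes, against 89.8% in the report. With the middle of the interval in place of the summit, the distance was 34 bp and the offset from the motif centre 5 bp. The other values stayed within the 95% interval of the reported value, also without chromosome 15. At 2 to 20 kb the convergent share was 12.7 to 15% and the divergent share 32.3 to 37.6% over all settings, and at 300 kb or more 31.4 to 37.7% and 18.1 to 22.5%. The lists limit what can be said: they hold called peaks alone, so cohesin below the threshold is not seen at this depth of 6.79 reads per kb, and they give no error for the position of a summit.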

Other observations

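Sites with matches on both strands were kept in the analysis and made up 11.3% of the matches at CTCF peaks with SMC1 and 9.52% of those without, on even-numbered chromosomes. Over the whole list they carried SMC1 in 65.5% (95% interval 64.0 to 67.0%) and the other matched sites in 59.8% (59.3 to 60.3%), with a median CTCF fold enrichment of 13.6 and 12.4.

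CTCF peaks with another CTCF peak within 2 kb carried SMC1 in 54.8%, those 2 to 10 kb from the nearest one in 55.1%, those 10 to 50 kb away in 51.6% and those 50 kb or more away in 47.3% (46.2 to 48.5%). Their median CTCF fold enrichment was 8.58, 11.03, 11.8 and 10.3, and their median CTCF −log10 q 25.3, 30.8, 27.6 and 20.6. The part of CTCF strength in this order was not tested.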
